A study of Mus musculus with 8 samples.

Results

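This report describes 9 nuclear receptors of mouse liver other than the PPARs, as measured by RNA sequencing in a study of the PPARɑ variant V227A. The receptors were chosen by name, as the rows of the deposited gene table whose symbol is *Nr1h4*, *Nr1i2*, *Nr1i3*, *Nr1h3*, *Nr0b2*, *Esrra*, *Nr5a2*, *Thrb* or *Rora*. All 9 were found among the 27179 genes of the table, and all 9 were among the 18937 genes with reads. Mouse has 49 nuclear receptors, and all of these are in the table too.

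The study compared 4 wild-type livers (valine at the edited residue of PPARɑ) with 4 livers homozygous for V227A (alanine at that residue), all from adult male C57BL/6NHsd mice after a 6 h fast. The substitution was made by adenine base editing in zygotes, is carried in the germline by every tissue, and comes from a single founder that was backcrossed. Wild-type and homozygous animals came from crosses of heterozygotes, and the fast fell in a daytime window, so each level belongs to a single time of day. The deposited table holds 1 value of level per gene, the authors' mean over all 8 libraries, and 0 columns per library. A difference between V227A and wild-type was therefore not tested here, and no spread between mice can be given for any gene.

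Nuclear receptors are a family of transcription factors, and the activity of many of them is set by small lipophilic ligands. Most of the receptors described here bind DNA as pairs with a retinoid X receptor (RXR), at repeats of a hexamer such as AGGTCA, and in liver they sense bile acids, oxysterols, foreign compounds and thyroid hormone. Some of the receptors, when unliganded, hold corepressors at their target genes, and a ligand exchanges these for coactivators. PPARɑ, the receptor altered in these mice, belongs to the same family and uses the same RXR partners.

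Levels are given as CPM (reads of a gene scaled to a common library size) per kb of gene length, so that long and short genes can be set beside each other. The CPM is that of the authors' mean, less the value of a gene without reads, and the length is the union of all annotated exons. Across the 17300 genes with reads and a known length, the median level was 1.15 CPM per kb and the most abundant 10% of genes began at 19.0 CPM per kb. The libraries had an estimated mean effective size of 27473997 reads, so counting error on the members is small. The 95% intervals below are exact Poisson intervals on the estimated reads of all libraries together. They cover counting error only, and leave out the spread between mice.

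The tissue label was checked against cell markers. All 6 hepatocyte markers lay in the top 10% of genes, from *Alb* at 29709 CPM per kb down to *Hnf4a* at 168 CPM per kb. Of 4 Kupffer cell markers, *Clec4f* had the highest level with 33.2 CPM per kb and *Adgre1* the lowest with 1.45 CPM per kb. Endothelial markers ran from 2.10 (*Pecam1*) to 15.4 CPM per kb (*Clec4g*), stellate cell markers from 0.963 (*Reln*) to 17.1 CPM per kb (*Dcn*) and cholangiocyte markers from 0.176 (*Krt7*) to 1.996 CPM per kb (*Krt19*). Lymphocyte markers stayed between 0.0237 (*Ms4a1*) and 0.355 CPM per kb (*Nkg7*). The pancreas markers *Prss2* and *Cpa1* had no reads, while *Cela1* stood at 13.0 CPM per kb. Of the intestine markers *Cdh17* was at 0.00102 CPM per kb, from an estimated 0.125 reads per library. *Fabp2* was at 89.3 CPM per kb and *Apoa4*, which mouse liver also makes, was at 68.6 CPM per kb. In bulk liver, fewer cells of a type and less RNA per cell cannot be told apart, and how much of each receptor's level comes from which cell type was not tested.

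The 9 receptors covered a wide range of levels. *Nr1h4*, *Nr1i2*, *Nr1i3* and *Nr1h3* stood together between 44.6 and 70.0 CPM per kb, and these 4 lay in the top 10% of genes. *Nr0b2* and *Esrra* were intermediate, *Nr5a2* and *Thrb* were lower, and *Rora* lay below the median gene per kb. Without division by length *Rora* lay above the median gene, at 10.3 CPM against 3.64 CPM. From *Nr1h4* to *Rora* the ratio of levels was 88.8 (95% counting interval 85.1 to 92.7).

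**Figure D1:**
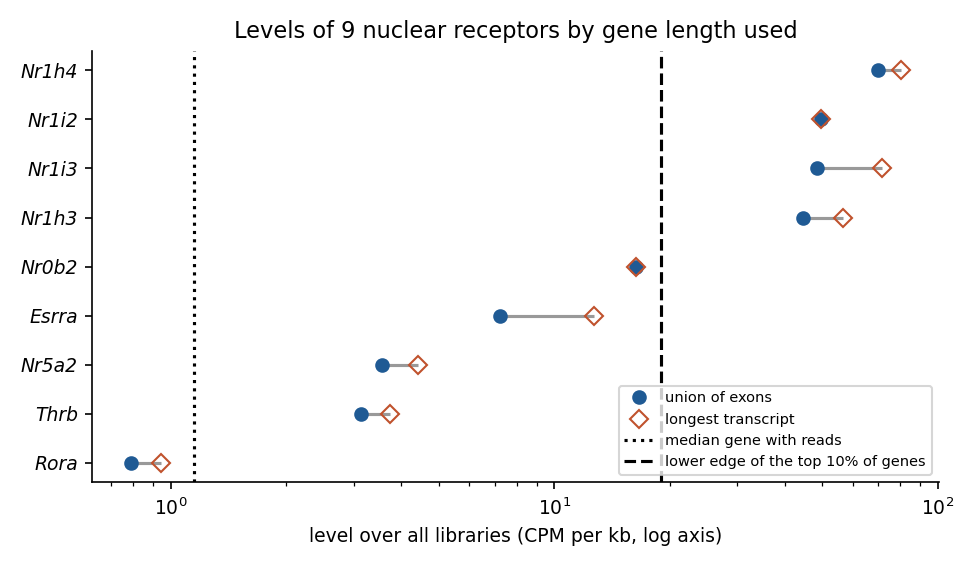
Level of each receptor over all libraries in CPM per kb on a log axis, with the length taken as the union of exons (circles) or as the longest transcript (diamonds). The dotted line marks the median gene at 1.15 CPM per kb, the dashed line the start of the top 10% of genes at 19.0 CPM per kb, and 4 receptors lie to the right of the dashed line with either length.

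*Nr1h4* encodes the farnesoid X receptor (FXR), which binds bile acids and limits their synthesis. On GRCm38, the build used throughout, it occupies chromosome 10 from 89454234 to 89533585, minus strand (gene ID 20186), with 3 annotated transcripts and 2303 exonic bases. The authors' mean was 7.33 on the log2 CPM scale, or 161 CPM, from an estimated 4427 reads per library. Its level of 70.0 CPM per kb (95% counting interval 69.2 to 70.7) was the highest of the 9, and 96.5% of genes lay below it.

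*Nr0b2* encodes the small heterodimer partner (SHP), a receptor without a DNA-binding domain that represses other receptors and is itself a classic FXR target. The gene is short, with 1132 exonic bases in 1 transcript on chromosome 4, from 133553376 to 133556536 on the plus strand (gene ID 23957). Its mean was 4.22 on the log2 CPM scale, or 18.5 CPM, from an estimated 509.1 reads per library. Per length this was 16.4 CPM per kb (95% counting interval 15.9 to 16.9), and 88.8% of genes lay below it. *Nr0b2* shows why levels are compared per length, since by CPM alone it lay below *Esrra*, *Thrb* and *Nr5a2*, and per kb it lay above all of them.

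*Nr5a2* encodes liver receptor homolog 1 (LRH-1), which binds DNA as a monomer and acts with FXR and SHP in the control of bile acid synthesis. It lies on the minus strand of chromosome 1, from 136842571 to 136960448 (gene ID 26424). The authors' mean of 4.39 on the log2 CPM scale, or 20.9 CPM, came from an estimated 575.4 reads per library. Over 5899 exonic bases this gave 3.55 CPM per kb (95% counting interval 3.45 to 3.65), with 67.7% of genes below it. Per kb, *Nr1h4* had by far the highest level of this trio, *Nr0b2* came next and *Nr5a2* was lowest. Without division by length *Nr5a2* lay above *Nr0b2*, which had 18.5 CPM.

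*Nr1h3* encodes the liver X receptor LXRɑ, which senses oxysterols and drives sterol efflux and lipogenic genes. It lies on the minus strand of chromosome 2, from 91184061 to 91202834 (gene ID 22259), with 8 transcripts and 2515 exonic bases. Its mean was 6.81 on the log2 CPM scale, or 112 CPM, from an estimated 3081.7 reads per library. The level was 44.6 CPM per kb (95% counting interval 44.0 to 45.2), above 94.8% of genes. Macrophages also use *Nr1h3*. The levels of the Kupffer cell markers given above do not give the share of its level from these cells, which was not tested.

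*Nr1i2* and *Nr1i3* encode the pregnane X receptor (PXR) and the constitutive androstane receptor (CAR), the receptors through which hepatocytes respond to drugs and other foreign compounds. *Nr1i2* lies on the minus strand of chromosome 16, from 38248323 to 38294824 (gene ID 18171), with 1 transcript of 2553 bases. Its mean was 6.98 on the log2 CPM scale, or 126 CPM, from an estimated 3474.8 reads per library, which gave 49.5 CPM per kb (95% counting interval 48.96 to 50.1). *Nr1i3* lies on the plus strand of chromosome 1, from 171213970 to 171220701 (gene ID 12355). It had the most reads of the 9, a mean of 7.74 on the log2 CPM scale or 214 CPM, from an estimated 5878.7 reads per library. Over 4414 exonic bases its level was 48.5 CPM per kb (95% counting interval 48.0 to 48.9). The level of *Nr1i3* is less certain than its reads imply. Of its exonic bases, 3304 (74.9%) are also exons of *Tomm40l*, a gene on the opposite strand with 17.0 CPM. The sources used here do not say if reads were assigned by strand, and the share of *Tomm40l* reads in this level was not tested. In RefSeq the 2 genes share 1044 bases of extent, and *Nr1i3* ends at 171218845. The length is therefore uncertain too, and the exons counted may be fewer than the 4414 bases used here. With the longest transcript of 2980 bases the level was 71.8 CPM per kb.

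*Thrb* encodes the thyroid hormone receptor TRβ, the main form through which thyroid hormone lowers cholesterol and drives lipid turnover in liver. It spans chromosome 14 from 17660261 to 18038090 on the plus strand (gene ID 21834), with 7403 exonic bases. Its mean was 4.54 on the log2 CPM scale, or 23.2 CPM, from an estimated 636.5 reads per library. The level was 3.13 CPM per kb (95% counting interval 3.04 to 3.22), with 65.6% of genes below it.

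*Esrra* encodes the estrogen-related receptor ERRɑ, an orphan receptor that drives mitochondrial genes together with PGC-1 coactivators. It lies on the minus strand of chromosome 19, from 6910977 to 6921813 (gene ID 26379). Its mean was 4.99 on the log2 CPM scale, or 31.6 CPM, from an estimated 869.2 reads per library. The level was 7.21 CPM per kb (95% counting interval 7.04 to 7.38), with 78.8% of genes below it, and 12.7 CPM per kb when the longest transcript of 2489 bases was used in place of 4387 exonic bases. It shares 73 exonic bases with *Trmt112* on the opposite strand, which is 1.66% of its exons.

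*Rora* encodes RORɑ, a monomeric receptor of the circadian and lipid networks that competes with the REV-ERB repressors for the same DNA sites. It is by far the longest of the 9 genes, 734 kb on the plus strand of chromosome 9 from 68653786 to 69388246 (gene ID 19883), with 13071 exonic bases. Its mean was 3.37 on the log2 CPM scale, or 10.3 CPM, from an estimated 283 reads per library. The level of 0.788 CPM per kb (95% counting interval 0.756 to 0.821) was the lowest of the 9, and 45.4% of genes lay below it.

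Some neighbours in the order of levels were close. *Nr1i2* exceeded *Nr1i3* by a ratio of 1.02 per kb of exons, and with the longest transcript as the length the order turned, to 49.5 against 71.8 CPM per kb. With that length *Nr1h3*, at 56.5 CPM per kb, also stood above *Nr1i2*. *Nr5a2* exceeded *Thrb* by a ratio of 1.13 with the union of exons and 1.18 with the longest transcript. The steps from *Nr1h3* to *Nr0b2* (2.72, and 3.45 with the longest transcript), from *Esrra* to *Nr5a2* (2.03 and 2.87) and from *Thrb* to *Rora* (3.97 and 3.95) were larger with either length. The step from *Nr0b2* to *Esrra* depended on the length, with a ratio of 2.27 per kb of exons, 1.29 with the longest transcript and 0.586 without division by length. None of these steps can be held against the spread between mice.

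**Figure D2:**
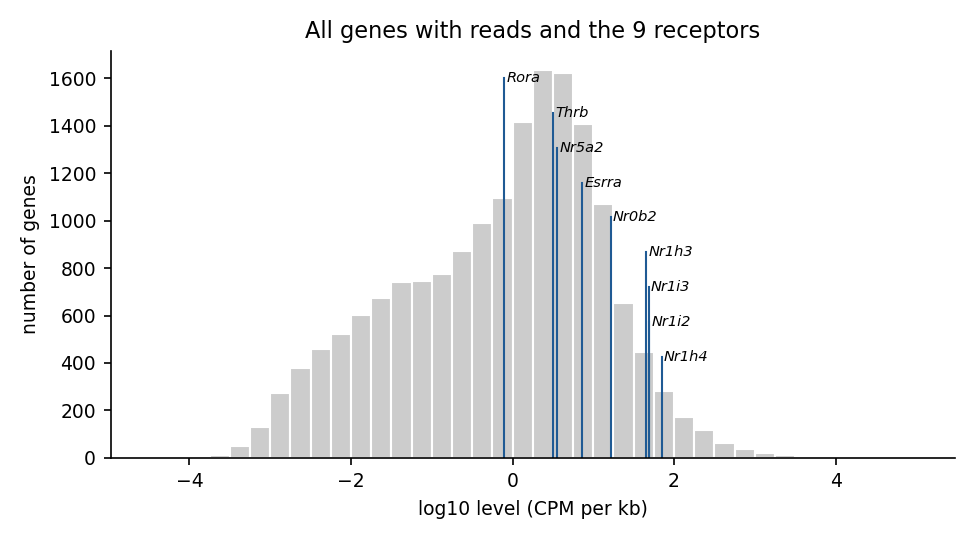
Number of genes with reads and a known length in each bin of the log10 level in CPM per kb (grey bars), with the level of each receptor as a blue line whose height has no meaning. *Rora* lies below the median gene per kb (1.15 CPM per kb, a log10 just above 0) but above it without division by length, and *Nr1h3*, *Nr1i3*, *Nr1i2* and *Nr1h4* lie in the upper tail between 44.6 and 70.0 CPM per kb.

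Within the nuclear receptor family, 43 of the 49 genes had reads. The 9 receptors took 25.2% of the family's summed CPM, 718 of 2847. Per kb, *Hnf4a* (168 CPM per kb), *Ppara* (86.5) and *Rxra* (77.7) led the family, and *Nr1h4*, *Nr1i2*, *Nr1i3* and *Nr1h3* followed in places 4 to 7. *Nr0b2* was in place 11, *Esrra* 15, *Nr5a2* 18, *Thrb* 20 and *Rora* 29. The median of the 9 was 16.4 CPM per kb, and that of the other 34 receptors with reads was 1.13 CPM per kb. Above 1 CPM per kb were 8 of the 9 and 19 of the other 40. The 9 were picked as liver receptors, so this difference describes the choice and was not tested.

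**Figure D3:**
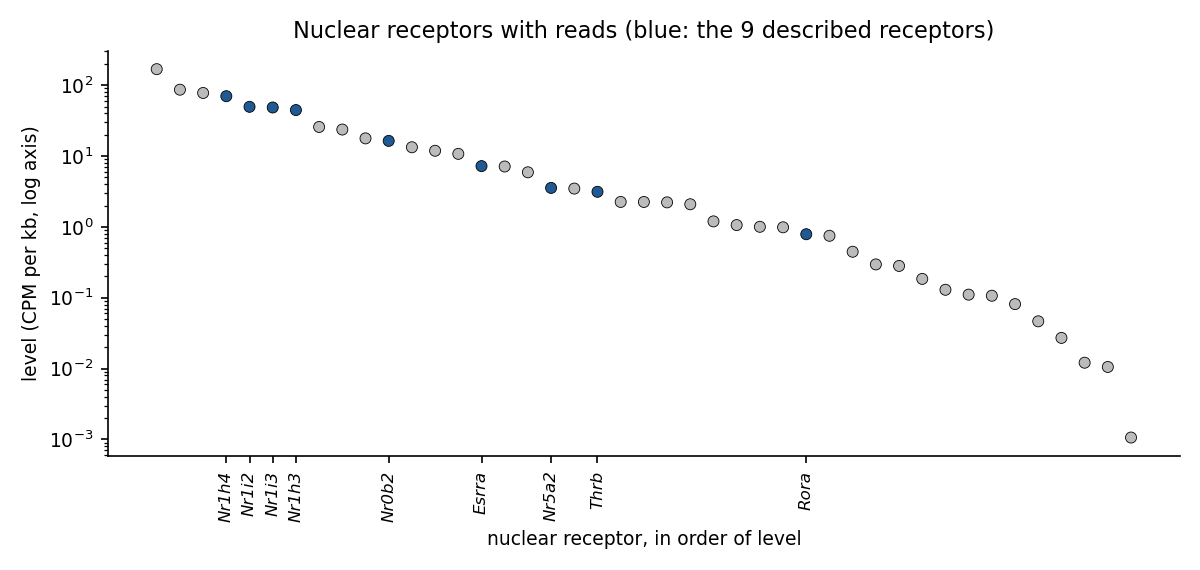
Level in CPM per kb (log axis) of the 43 nuclear receptors with reads, in descending order, with the 9 described receptors in blue and named on the axis, and the others in grey. Places 4 to 7 are *Nr1h4*, *Nr1i2*, *Nr1i3* and *Nr1h3*, while *Rora*, at 0.788 CPM per kb, stands at place 29.

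The receptors were set beside close relatives. *Nr1h2*, which encodes the widely expressed LXRβ, had 11.9 CPM per kb, and *Nr1h3* exceeded it by a ratio of 3.76 (95% counting interval 3.67 to 3.85). *Nr1h5* encodes FXRβ, a lanosterol receptor in mice, and its 0.749 CPM per kb was exceeded by *Nr1h4* by a ratio of 93.4 (85.3 to 102.6). *Vdr*, the vitamin D receptor and nearest relative of PXR and CAR, had 0.0105 CPM per kb from an estimated 1.64 reads per library, against 49.5 for *Nr1i2*. *Esrrg* and *Esrrb*, the other ERR genes, were at 0.129 and 0.111 CPM per kb, and *Esrra* exceeded them by ratios of 55.7 (48.0 to 65.0) and 65.2 (55.4 to 77.3). With the longest transcript as the length these ratios were 84.9 and 81.8, so the order of the pair turned.

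*Rorb*, a relative of *Rora* known from brain and retina, had no reads. For the thyroid hormone receptors the order depended on the length used. *Thra*, which encodes TRɑ, had 2.22 CPM per kb and *Thrb* exceeded it by a ratio of 1.41 (1.34 to 1.48), but with the longest transcript as the length the ratio was 0.895. *Thra* shares 263 exonic bases with *Nr1d1* on the opposite strand. *Nr0b1*, the relative of SHP that acts in adrenal and gonad, and *Nr5a1*, the steroidogenic relative of LRH-1, had no reads. Taken at the limit of 3 counts over all libraries, *Nr0b2* was at least 2168-fold higher than *Nr0b1*, *Nr5a2* at least 1103-fold higher than *Nr5a1* and *Rora* at least 639-fold higher than *Rorb*.

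*Nr1h3*, *Nr1h4*, *Nr1i2*, *Nr1i3* and *Thrb* are RXR-pairing receptors, and their levels summed to 216 CPM per kb. *Rxra* had 77.7 CPM per kb, *Rxrb* 10.7 and *Rxrg* 2.25. PPARɑ draws on the same partners. Corepressors were led by *Hdac3* at 12.4 CPM per kb and *Ncor1* at 9.83 CPM per kb, with *Nrip1* the lowest of the 6 listed at 0.107 CPM per kb. The 8 coactivators ranged from 1.05 CPM per kb for *Ppargc1a*, which encodes the PGC-1ɑ partner of ERRɑ, to 4.11 CPM per kb for *Ppargc1b*. Per kb, none of these cofactors lay in the top 10% of genes. Without division by length *Ncor1* did. Its 126.0 CPM lay between *Nr1h3* (112.2 CPM) and *Nr1i2* (126.5 CPM), which were above 94.2% and 95.0% of genes by CPM.

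Target genes of the receptors were taken from textbook lists. Leaving out the receptors themselves, the lists held 53 genes, 51 of them with reads. Of these, 43 lay above the median gene and 32 lay in the top 10%, and their median was 29.8 CPM per kb. The lists hold genes known from liver, so high levels describe the lists as much as the livers.

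For FXR, the list ran from *Fetub*, a secreted fetuin, at 418 CPM per kb to *Slc51b*, a subunit of the basolateral bile acid exporter, at 0.161 CPM per kb. Its other subunit gene *Slc51a* and the intestinal hormone gene *Fgf15* had no reads. *Abcb11*, the canalicular bile salt export pump, was at 77.7 CPM per kb. For LXR, *Apoe*, the lipoprotein ligand for hepatic remnant uptake, led with 10662 CPM per kb and the sterol exporter gene *Abcg1* was lowest with 0.544 CPM per kb. The canalicular sterol transporter genes *Abcg5* and *Abcg8* stood close together at 27.7 and 33.5 CPM per kb.

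For LRH-1, *Gnmt*, which encodes glycine N-methyltransferase, led with 1424 CPM per kb, and the lowest of the list was *Nr0b2* itself at 16.4 CPM per kb. *Cyp7a1*, the rate-limiting enzyme of bile acid synthesis and the gene that SHP is best known to repress, was at 33.0 CPM per kb, and *Cyp8b1*, which sets the share of cholic acid, was at 282 CPM per kb. All 9 genes listed for bile acid synthesis lay in the top 10%, from *Akr1d1* at 27.9 to *Slc27a5* at 471 CPM per kb. Of 7 bile acid transporters 6 lay there, led by the uptake transporter *Slc10a1* at 232 CPM per kb, and the exception was *Abcc4* at 0.229 CPM per kb.

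For the foreign compound receptors, *Cyp3a11*, the classic PXR target, had 686 CPM per kb and the drug efflux gene *Abcb1a* was the lowest of that list with 0.225 CPM per kb. For CAR, *Cyp2c29* led with 353 CPM per kb, *Cyp2b10*, the classic CAR target, had 10.7 CPM per kb, and *Cyp2b9*, which is known as female-biased, was lowest with 0.429 CPM per kb. *Cyp2b*, *Cyp2c* and *Cyp3a* genes belong to families of similar copies among which the counting could split reads, so their single values are uncertain.

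For the thyroid hormone receptor all 6 targets lay above the median gene, from *Bcl3* at 10.5 to *Thrsp*, a lipogenic regulator, at 111 CPM per kb. *Dio1*, the deiodinase that is both target and activator of the hormone, had 69.0 CPM per kb, while the other deiodinase genes *Dio2* and *Dio3* had 7.98e-04 and 0.0538 CPM per kb. For ERRɑ the 8 listed mitochondrial genes ran from *Cycs* (cytochrome c) at 2.49 to *Atp5f1b*, a subunit of ATP synthase, at 255 CPM per kb. For RORɑ, *Cyp8b1* led the list and the clock genes *Bmal1* and *Npas2*, which RORs activate and REV-ERBs repress, were at 0.218 and 0.0381 CPM per kb.

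**Figure D4:**
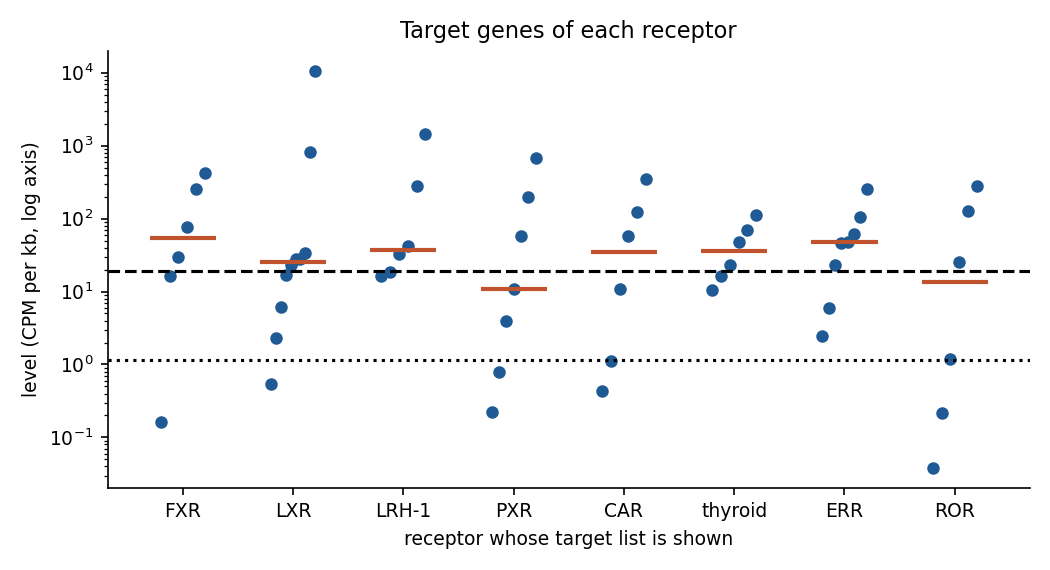
Level in CPM per kb (log axis) of the target genes with reads listed for each receptor (points, spread sideways in order of level) with the median of the list (orange bar). The dotted line is the median gene (1.15 CPM per kb) and the dashed line the start of the top 10% (19.0 CPM per kb), and the ROR and PXR lists have medians of 13.5 and 10.7 CPM per kb, below the dashed line, while the other 6 lie above it.

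The promoter sequences of the 9 genes were examined for what they share beyond the rule that chose them. The RefSeq promoter table used here (GRCm38.p6) holds 12 start sites for the 9 genes, not all of their starts, and the window of each ran from 250 bases before to 50 bases after the start. Of the 12 starts, 10 lie inside the RefSeq extent of their gene, from 25 bases for *Nr1i2* to 322419 bases for the second start of *Thrb*, so RefSeq also places starts further out, which were not examined except for *Nr5a2*. The start of *Nr0b2* and the outer start of *Nr5a2* are at the edge of the extent. The windows fell into groups by their content of the dinucleotide CG. *Rora* (28 CG), *Esrra* (25) and the first start of *Thrb* (37) were CG-rich, and the other 9 windows held 2 to 10, against a median of 7 over all 32851 promoters. The 4 receptors in the top 10% of genes were all in the second group, and *Nr0b2* and *Nr5a2* were too. The groups were cut on these windows, and their shares over all promoters were not counted. With a median of 7 over all promoters, a place in the second group is not unusual. The *Nr1h3* windows, with 10 and 8 CG, lay above that median and that of *Nr1h4*, with 7, lay at it. With 9 genes the grouping is a description and carries no test.

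The upstream bases of *Nr1i2*, at 49.5 CPM per kb, are shown as an example of a CG-poor promoter (chr16:38294850-38295074, minus strand, 225 bases with 2 CG, all outside the annotated gene). They are written 5′ to 3′ on the strand of the gene, with CG in capitals.
Nr1i2: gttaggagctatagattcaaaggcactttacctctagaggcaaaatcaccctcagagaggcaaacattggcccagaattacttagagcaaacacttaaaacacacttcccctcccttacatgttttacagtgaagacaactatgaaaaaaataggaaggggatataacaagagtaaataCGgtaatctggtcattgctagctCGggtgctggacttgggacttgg

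The same windows were searched on either strand for the receptor hexamer AGGTCA, for direct repeats of it spaced by 1 or by 4 bases, for its inverted repeat spaced by 1 base, for the longer TCAAGGTCA that LRH-1 and ERR receptors bind as monomers, and for the E-box CACGTG of the clock factors. The hexamer was found in 3 of the 12 windows, in those of *Nr1h4*, *Nr5a2* and *Thrb*, and in 16.3% of all promoters. CACGTG was found in 3 of 12 windows, in those of *Nr0b2*, *Nr1i3* and *Thrb*, and in 7.15% of all promoters. The direct repeats spaced by 1 and by 4 bases and the inverted repeat were in none of the 12 windows. Over all promoters, 0.0396%, 0.0152% and 0.00913% hold them, so their absence from 12 windows is not unusual. TCAAGGTCA was in none of the 12 windows either, and 0.423% of all promoters hold it. A match is only a description of letters, and a window without one says nothing about the factor.

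The 6 matches are shown so that their surroundings can be read, each 5′ to 3′ on the strand of the gene with the match in capitals and its position counted from the start site. The *Nr1h4* match is on the opposite strand and so reads TGACCT.
Nr1h4 (chr10:89506855-89506884, -214 to -209): ccgtgtggcattTGACCTccagccagtctt
Nr5a2 (chr1:136960495-136960524, -64 to -59): atggtttacagcAGGTCAtacatgctggaa
Thrb, first start (chr14:17660764-17660793, -184 to -179): aggagagttgacAGGTCAagggaatagggc
Thrb, second start (chr14:17981439-17981468, -193 to -188): tcatttcctaatCACGTGgaaagaggttaa
Nr0b2 (chr4:133553169-133553198, -195 to -190): tgatagcaaggcCACGTGgagcttccagtg
Nr1i3 (chr1:171213720-171213743, -244 to -239): aaactgCACGTGaaaaagcttgcc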

How the data were processed

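Stranded poly-A libraries from 8 livers were sequenced as paired ends. The authors trimmed the reads with Trimmomatic, checked them with FastQC, aligned them to GRCm38 with RNA STAR and counted them with featureCounts; versions, annotation and strand setting are not given in the sources used here. The deposited table holds the average log2 CPM per gene, fitted by the authors with edgeR over all libraries, and this column alone was used. Its other columns hold the authors' own comparison of genotypes (fold change, F, p-value, FDR) and were neither used nor printed.

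Genes at the lowest value, -3.78 on the log2 scale (8242 of 27179), were taken as without reads. Assuming that the authors kept edgeR's default prior count of 2, this value gave the mean effective library size and, from it, each gene's estimated reads. Estimated totals came within 0.1 of an integer for 99.9% of the 2378 genes whose total was at most 5. The calculation was also run on simulated data made with the same prior count of 2, which cannot test that assumption. The depth of each single library is unknown. Exon lengths and coordinates came from GENCODE vM21 (GRCm38) and were found for 91.4% of genes with reads. Promoters came from RefSeq (GRCm38.p6) and all 9 receptors matched. RefSeq synonyms placed 3 listed names. Protein sequences were not analysed here.

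Named genes are the 9 receptors, their paralogs, the RXRs, and from each target or marker list the highest and lowest gene with reads and those without. Some items under this rule are not reported here. Further genes named in the text were chosen after their values were seen. The receptors and lists were chosen with earlier results of these data known. Python 3.11.15, pandas 2.3.3, numpy 2.4.6, scipy 1.17.1 and matplotlib 3.10.9 were used.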

Additional observations from a re-analysis of the deposited data

How the results depend on the processing

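No paired analysis was possible because the table gives no values per library, so the genotype test planned for counts, its replicate block, leave-one-out fits, other normalization and count filter were not run. The ratio of the highest to the lowest receptor, 88.8, was 84.5 with the longest transcript as the length and 20.8 without division by length, where *Nr1i3* was the highest. It was 88.2 when the level of genes lacking reads was not subtracted. The number of the 9 receptors in the top 10% of genes was 4 under every setting tried, as was the number among the 10 highest nuclear receptors, and 43 targets lay above the median gene with either length. Per gene, the longest transcript moved 7 of the 9 levels beyond their counting interval. The longest transcript cannot be longer than the union of exons, so a level could only rise or stay. *Nr1i2* and *Nr0b2*, with 1 transcript each, could not move.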

Other observations

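Outside the 9 receptors, *Nr1d1* and *Nr1d2*, which encode the REV-ERB repressors, took places 8 and 12 of the family per kb in these daytime livers. These 2 genes had 25.7 and 13.3 CPM per kb, while *Clock* was at 1.17 CPM per kb. *Nr2f6*, an orphan receptor, was at 23.7 CPM per kb. Of the steroid receptors the glucocorticoid receptor gene *Nr3c1* led with 5.90 CPM per kb, and *Esr1* and *Pgr* had 0.107 and 0.00106 CPM per kb. The oxysterol genes were as unequal, with *Cyp27a1* at 372 CPM per kb and *Ch25h* at 0.0231 CPM per kb from an estimated 0.878 reads per library.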
